A study of Mus musculus with 12 samples.

Results

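Vitamin A handling was followed through 7 genes of retinoid uptake, binding and conversion (Rbp2, Lrat, Bco1, Isx, Rdh10, Dhrs3 and Aldh1a1), taken by name from a table of 30265 genes. All 7 were in the table, and all 7 had enough reads to be tested. Expression was measured by RNA sequencing of intestinal epithelial cells of C57Bl/6 mice with a Sox9-GFP reporter. Cells were sorted by reporter level into 4 gates named Sox9 High, Low, Sublow and Negative, with 3 libraries (replicates A, B and C) in each, every one from 12000 cells. All gates come from reporter mice, and the labels name no treatment. Age, sex and gut segment were not given in the sources used here. A gate is a range of reporter signal and not a pure cell type. The labels do not say whether a letter stands for a separate animal, so that p-values measure only the spread between these libraries, which may be technical.

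Dietary vitamin A reaches the enterocyte as retinol, freed from retinyl esters, or as beta-carotene. Bco1 cleaves beta-carotene to retinaldehyde, and Rbp2, the cellular retinol-binding protein of the small intestine, carries retinol and retinaldehyde in the cytosol. Lrat esterifies retinol for export in chylomicrons, Rdh10 oxidises retinol to retinaldehyde, Dhrs3 reduces retinaldehyde back to retinol, and Aldh1a1 turns retinaldehyde irreversibly into retinoic acid. Isx, an intestinal homeobox factor that retinoic acid induces, is known as a repressor of Bco1 and of Scarb1, the gene of a receptor that takes up carotenoids.

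Depth ranged from 11.6 M to 17.0 M reads counted in genes (M, 1000000), and 3 reads were worth between 2.38 and 4.61 normalised counts, which are read counts scaled by the authors with 1 factor per library. Sox9 fell in the order of the gates, from 20262 ± 1220.2 in High through 6601 ± 921 and 2084 ± 897 to 604 ± 191 in Negative (mean ± SD, n = 3). Markers of absorptive enterocytes, 10 genes such as Alpi, Sis and Fabp1, summed to between 680525 and 1038960 in Negative, 85411 and 546066 in Sublow, 19806 and 54425 in Low, and 36038 and 50258 in High. Low replicate B held 54425 of these counts against 21155 and 19806 in the other Low libraries, and Sublow replicate C held 85411 against 268167 and 546066. Markers of T and B cells summed to between 303 and 650.4 in the 12 libraries. Those of dendritic cells and macrophages summed to between 89.4 and 145. In the latter list Cd209a was at 0 in 8 libraries, Adgre1 in 4 and Itgax in 2. Flt3, Csf1r, Cd68 and Lyz2 were at 0 in none.

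The 7 genes showed 3 patterns across the gates. Rbp2 and Aldh1a1 were 36.5-fold and 29.7-fold higher in Negative than in Low. Isx, Lrat, Dhrs3 and Rdh10 were lowest in High and rose from Low to Negative by 1.91-fold to 2.47-fold. Bco1 was highest in High, 3.65-fold above Low. Folds and log2 differences are on the log2(normalised count + 1) scale throughout.

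**Figure D1:**
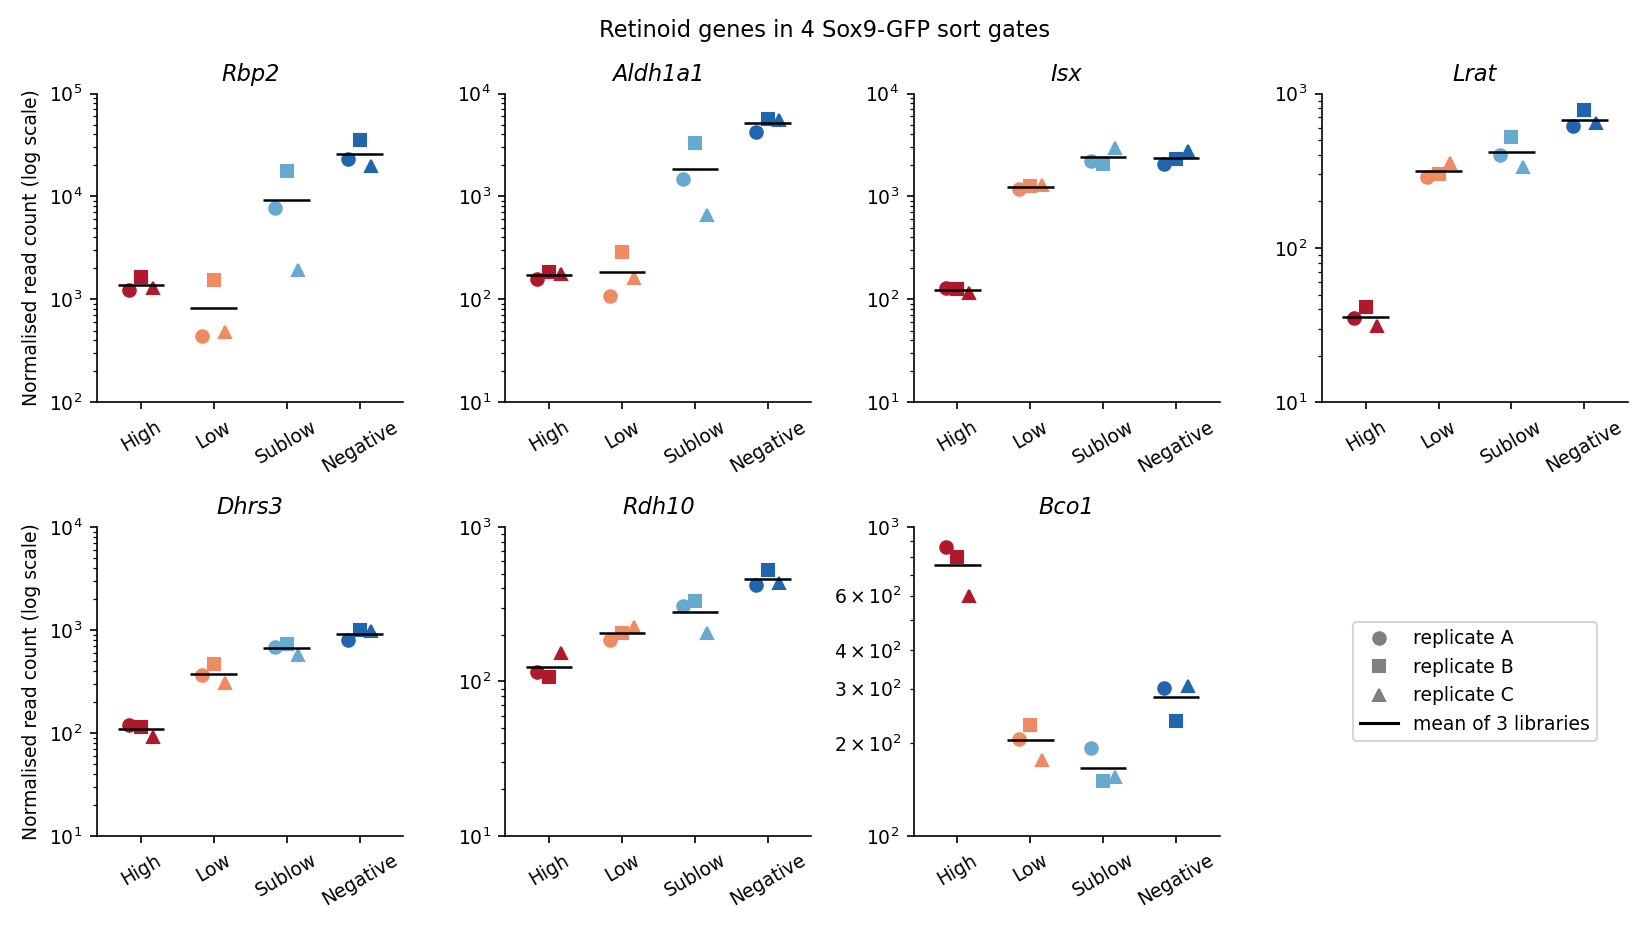
Normalised read count (log scale) of each of the 7 retinoid genes in the 4 sort gates; points are libraries with the shape giving the replicate letter, and lines are means of 3 libraries. Rbp2 and Aldh1a1 are highest in Negative, Isx, Lrat, Dhrs3 and Rdh10 are lowest in High, and Bco1 is highest in High, where its libraries lie between 597 and 861.

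The bases upstream of the start sites are shown for Rbp2 and Aldh1a1, which had the steep rise to Negative, for Bco1, which was highest in High, and for Isx, its known repressor, which was lowest there. They are the 250 bases before the start in RefSeq (GRCm38.p6), which had an entry for 6 of the 7 members. Rdh10 was not among them. All 4 are on the plus strand, at chr9:98490287-98490536 for Rbp2, chr19:20601718-20601967 for Aldh1a1 (the second of its 2 starts), chr8:117095615-117095864 for Bco1 and chr8:74872924-74873173 for Isx. Capitals mark matches on either strand to AGGTCA (a nuclear receptor element), AGATAA (bound by GATA factors), TTTATNG (CDX factors), CAAAGTNCA (HNF4) and TATAAA (the TATA box), and the longest run that Rbp2 and Bco1 share.
Rbp2: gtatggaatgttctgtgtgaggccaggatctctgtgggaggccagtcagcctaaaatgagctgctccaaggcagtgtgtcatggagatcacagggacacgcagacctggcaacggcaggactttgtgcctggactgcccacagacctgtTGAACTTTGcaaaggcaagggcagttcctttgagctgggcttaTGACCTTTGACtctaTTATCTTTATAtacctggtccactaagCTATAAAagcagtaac
Aldh1a1: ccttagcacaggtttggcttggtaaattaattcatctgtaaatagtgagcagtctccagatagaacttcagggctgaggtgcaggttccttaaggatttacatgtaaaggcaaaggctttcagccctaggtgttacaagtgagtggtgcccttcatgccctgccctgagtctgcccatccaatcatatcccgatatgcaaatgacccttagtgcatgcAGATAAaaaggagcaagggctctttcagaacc
Bco1: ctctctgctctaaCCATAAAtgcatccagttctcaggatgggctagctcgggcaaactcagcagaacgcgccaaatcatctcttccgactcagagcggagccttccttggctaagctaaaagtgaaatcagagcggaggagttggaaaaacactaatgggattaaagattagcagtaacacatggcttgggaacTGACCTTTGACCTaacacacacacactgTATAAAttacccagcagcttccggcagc
Isx: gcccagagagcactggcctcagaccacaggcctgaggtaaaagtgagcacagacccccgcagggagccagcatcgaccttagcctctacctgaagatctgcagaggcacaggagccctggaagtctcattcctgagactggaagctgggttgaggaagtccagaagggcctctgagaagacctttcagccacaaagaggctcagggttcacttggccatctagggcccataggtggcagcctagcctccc

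Rbp2 and Bco1, whose levels did not follow each other, shared the run TGACCTTTGAC, 11 bases long. It begins 58 bases before the start in Rbp2 and 56 bases before it in Bco1. The run was picked after the sequences were seen, and it contains the reverse complement of AGGTCA. On either strand it is in 12 of 32851 RefSeq windows of 300 bases (0.0365%), whereas AGGTCA is in 16.3% of them. Bco1 has a second match to AGGTCA that begins 49 bases before the start. This match overlaps the end of the run but not the first match. Bco1 also has TATAAA 28 bases before the start and a match to TTTATNG (in 10.9% of windows) 237 bases before it. Rbp2 also matched AGATAA (in 11.2% of windows), CAAAGTNCA (1.41%), TTTATNG and, on both strands, TATAAA (13.6%). The Aldh1a1 window matched AGATAA 32 bases before the start and nothing else in the list, and the windows of Isx and Lrat matched none. A match describes the letters and is not a bound site.

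Divided by exon length, Rbp2 had the highest mean level of the 7 in every gate. It stood at 27106 ± 8427 normalised counts per kilobase of exon in Negative (mean ± SD, n = 3). Isx and Aldh1a1 followed in Negative at 1334 ± 205 and 1043 ± 159 per kilobase, and then Dhrs3 at 316 ± 38.3. Lrat, Bco1 and Rdh10, at 127 ± 16.05, 111 ± 15.6 and 111 ± 13.9, did not differ beyond their spread. In High, Rbp2 at 1445 ± 240 was followed by Bco1 at 296 ± 54.1 and Isx at 69.0 ± 4.37, with Lrat lowest at 6.72 ± 0.96. In Low, Rbp2 at 858 ± 654 and Isx at 693 ± 31.7 did not differ beyond their spread. Exon lengths are those of GENCODE M21, and the annotation behind the counts was not given in the sources used here.

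Rbp2, the retinol carrier, measured 23118, 35247 and 19864 in the Negative libraries A, B and C. It measured 7818, 17840.1 and 1942 in Sublow, 446, 1552 and 480.2 in Low, and 1227, 1654 and 1289.9 in High. Negative lay above every other gate without overlap, the Sublow libraries were spread 9.19-fold, and Low overlapped High through replicate B alone. Negative exceeded Low 36.5-fold (log2 difference 5.19 ± 0.66 (SE), limma with Benjamini-Hochberg adjustment, adjusted p = 4.2e-05) and High 18.3-fold (adjusted p = 0.000147). The standard error pools the spread of all 12 libraries. Sublow exceeded Low 9.33-fold (adjusted p = 0.00457) and High 4.69-fold (adjusted p = 0.0131). These sizes moved with single Sublow libraries. The log2 difference of Sublow minus Low, 3.22, was 2.49 without replicate B and 4.09 without replicate C, and that of High minus Sublow, -2.23, was -1.50 (adjusted p = 0.0497) and -3.10. With quantile scaling Negative minus Low was 4.55 and High minus Negative -3.54, from 5.19 and -4.20. The step from Sublow to Negative, 3.91-fold, had an adjusted p of 0.044 and was not called in 17 of the 23 other settings. Without Sublow replicate C the log2 difference of Sublow minus Negative went from -1.97 to -1.10 (adjusted p = 0.157). High and Low were not separated (log2 difference 0.99 ± 0.66, adjusted p = 0.248), and without Low replicate B the difference was 1.57 (adjusted p = 0.0847).

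Aldh1a1, the retinaldehyde dehydrogenase, measured 4249, 5656 and 5549 in Negative, 1492, 3344 and 657 in Sublow, 108, 289 and 161 in Low, and 157, 185 and 176 in High. The Sublow libraries lay between those of Low and Negative without overlap, and High fell inside the range of Low. Negative exceeded Low 29.7-fold (log2 difference 4.89 ± 0.47, adjusted p = 9.04e-06) and High 29.5-fold (adjusted p = 2.52e-06). Sublow exceeded Low 8.64-fold (adjusted p = 0.000986) and High 8.58-fold (adjusted p = 0.000156). Without Sublow replicate C those log2 differences went from 3.11 to 3.70 (Sublow minus Low) and from -3.10 to -3.69 (High minus Sublow), and Sublow minus Negative from -1.78 to -1.19. Sublow was 3.44-fold below Negative (adjusted p = 0.0189), which was not called without Sublow replicate A (adjusted p = 0.0505), Sublow replicate C (0.0603), Negative replicate B (0.0666) or Negative replicate C (0.0501). The log2 difference of High minus Low was 0.01 ± 0.47 (adjusted p = 0.99). Of the 50-base stretches of the longest Aldh1a1 transcript, 6.54% occur in other genes. Aldh1a7, a close copy, shares more of them than any other gene. How far this moves the counts of Aldh1a1 or Aldh1a7 was not tested. Aldh1a7 measured 669 ± 152 in Negative and 41.1 ± 22.0 in Low (log2 difference 4.09 ± 0.47, adjusted p = 2.2e-05).

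Both genes moved with the enterocyte markers from library to library. Over the 12 libraries Rbp2 spanned 79.1-fold and the summed markers 52.5-fold, while Rbp2 per 1000 marker counts ran from 21.1 to 35.6, a span of 1.69-fold. Aldh1a1 spanned 52.4-fold as a level and 2.20-fold per 1000 marker counts, from 3.69 to 8.12. Sublow replicate C and Low replicate B, which stood apart in level, had 22.7 and 28.5 Rbp2 counts per 1000 marker counts. Both are among the 12 libraries that set this range. The other members did not keep such a ratio: per 1000 marker counts Isx spanned 29.4-fold, Lrat 24.0-fold, Rdh10 22.5-fold, Dhrs3 17.7-fold and Bco1 105-fold. The part of enterocyte number in these levels was not tested, and in sorted bulk samples fewer cells of a type and less RNA per cell cannot be told apart.

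**Figure D2:**
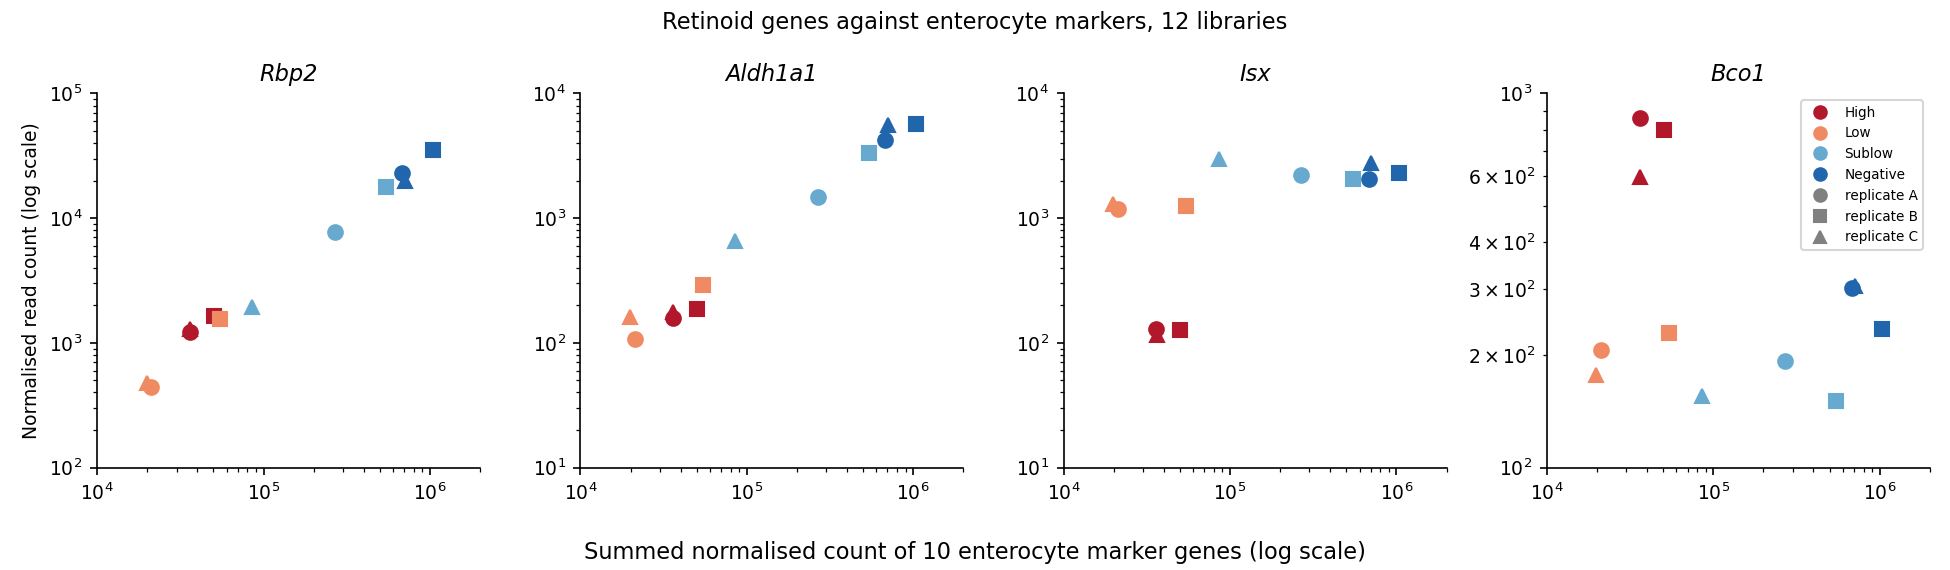
Normalised read count of Rbp2, Aldh1a1, Isx and Bco1 (log scale) against the summed normalised count of 10 enterocyte marker genes (log scale); each point is a library, coloured by gate and shaped by replicate letter. Rbp2 and Aldh1a1 rise with the markers through all 4 gates, whereas the 3 High libraries are apart from the others for Isx, where they are low, and Bco1, where they are high.

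Isx, the homeobox repressor, measured 2073, 2308 and 2792 in Negative, 2226, 2076 and 2965 in Sublow, 1181, 1255 and 1292 in Low, and 129.9, 126 and 115 in High. High lay far below every other gate, Low lay between High and the rest, and Sublow and Negative overlapped. High was 9.98-fold below Low (log2 difference -3.32 ± 0.15, adjusted p = 1.68e-07), 19.2-fold below Sublow (adjusted p = 4.28e-09) and 19.1-fold below Negative (adjusted p = 2.32e-09). Isx was 1.93-fold higher in Sublow than in Low (adjusted p = 0.00141) and 1.91-fold higher in Negative than in Low (adjusted p = 0.000258). The latter was not called when all libraries were scaled to 1 total (log2 difference 0.37, adjusted p = 0.0756), a scaling that moved the median of all genes in that comparison from -0.05 to -0.60. Sublow and Negative were not separated (log2 difference 0.01 ± 0.15, adjusted p = 0.963).

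Lrat, the retinol acyltransferase, measured 617, 777 and 642 in Negative, 399, 519.9 and 332 in Sublow, 288, 299.7 and 355 in Low, and 35.2, 41.5 and 31.3 in High. Low and Sublow overlapped, and High and Negative stood clear on either side. High was 8.54-fold below Low (log2 difference -3.09 ± 0.19, adjusted p = 8.93e-07), 11.2-fold below Sublow (adjusted p = 4.4e-08) and 18.4-fold below Negative (adjusted p = 7.25e-09). Negative exceeded Low 2.15-fold (adjusted p = 0.00037). It exceeded Sublow 1.64-fold (adjusted p = 0.0195), which was not called without Sublow replicate A (adjusted p = 0.0540), Sublow replicate C (0.0695) or Negative replicate B (0.0853). Sublow against Low was not called (log2 difference 0.39 ± 0.19, adjusted p = 0.168), but it was without Sublow replicate C (0.54, adjusted p = 0.0466). An antisense gene, Rbm46os, overlaps Lrat, and whether the counting used strand was not given in the sources used here. Other members are overlapped too. On the same strand, Gm37113 overlaps Rbp2 and the processed pseudogene Gm20694 overlaps Bco1. On the opposite strand, C730002L08Rik and Gm6684 overlap Aldh1a1.

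Summed markers of goblet and Paneth cells were also lowest in High, as Isx and Lrat were. Goblet markers, 6 genes such as Muc2 and Tff3, summed to between 8267 and 12083 in High, 139724 and 481426 in Low, 337977 and 586715 in Sublow, and 49642 and 107667 in Negative. Of these, Muc2, Zg16, Clca1 and Fcgbp were lowest in High without overlap, whereas Agr2 and Tff3 overlapped between High and Negative. Agr2 ran from 1046.5 to 1777 in High and from 520 to 1441 in Negative. Tff3 ran from 310 to 498 in High and from 434 to 954 in Negative. Paneth markers, 5 genes such as Lyz1 and Mmp7, summed to between 415 and 3452 in High, 15248 and 35024 in Low, 10490.3 and 14791 in Sublow, and 37708 and 97121 in Negative. None of these genes was at 0 in any library, and the part of these cells in the levels of Isx and Lrat was not tested.

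Dhrs3 and Rdh10, which catalyse opposite steps between retinol and retinaldehyde, were both lowest in High and highest in Negative. Dhrs3 measured 795, 1001 and 974 in Negative, 677, 737 and 570.3 in Sublow, 362, 463 and 305 in Low, and 121, 113 and 91.2 in High. Rdh10 measured 419, 526 and 435 in Negative, 306, 331 and 207 in Sublow, 186, 206 and 226 in Low, and 115, 107 and 152 in High. The 4 gates did not overlap for Dhrs3, and for Rdh10 Sublow replicate C lay inside the range of Low. In High, Dhrs3 was 3.42-fold below Low (log2 difference -1.78 ± 0.18, adjusted p = 1.87e-05). Rdh10 was 1.66-fold below Low (log2 difference -0.73 ± 0.21, adjusted p = 0.0125), which was not called without High replicate B (-0.63, adjusted p = 0.0544). From Low to Negative, Dhrs3 rose 2.47-fold (adjusted p = 8.75e-05) and Rdh10 2.22-fold (adjusted p = 0.000446). Against Negative, High was 8.46-fold lower for Dhrs3 and 3.69-fold lower for Rdh10 (adjusted p = 4.81e-08 and 6.93e-06).

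The Sublow gate lay between Low and Negative for both genes. Dhrs3 was 1.77-fold higher in Sublow than in Low (adjusted p = 0.00733). The 1.34-fold difference of Rdh10 was not called (adjusted p = 0.159), but it was without Sublow replicate C (log2 difference 0.63, adjusted p = 0.0219). Sublow minus Negative was called for Rdh10 (log2 difference -0.73 ± 0.21, adjusted p = 0.0235), though not without Sublow replicate C (0.0812) or Negative replicate B (0.0969). It was not called for Dhrs3 (-0.48 ± 0.18, adjusted p = 0.0697), but it was with DESeq2 (adjusted p = 0.0459) and without Sublow replicate B (0.0495). Whether the steps of Dhrs3 and Rdh10 differ from each other was not tested. The ratio of Dhrs3 to Rdh10 counts ran from 0.6 to 1.06 in High and from 1.35 to 2.75 in the other 9 libraries.

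Bco1, the carotene oxygenase, measured 302, 235 and 306 in Negative, 193, 151 and 156 in Sublow, 206, 229.5 and 177 in Low, and 861, 798 and 597 in High. Every High library lay above every library of the other gates, Low overlapped Sublow, and Negative lay just above Low without overlap. High exceeded Low 3.65-fold (log2 difference 1.87 ± 0.19, adjusted p = 1.42e-05), Sublow 4.47-fold (adjusted p = 1.6e-06) and Negative 2.66-fold (adjusted p = 3.56e-05). These comparisons share the High libraries. Negative exceeded Sublow 1.68-fold (adjusted p = 0.0145), which was not called on scaling to 1 total (adjusted p = 0.123). Negative minus Low was 0.46 ± 0.19 on the log2 scale and was not called (adjusted p = 0.0525). It was called with DESeq2 (adjusted p = 0.0421), with quantile scaling (0.0107), with a minimum mean of 50 (0.0448), without the Sublow gate (0.046) and without Low replicate B (0.0498), Negative replicate B (0.0317), High replicate C (0.041) or Sublow replicate C (0.0485), and it turned to -0.10 on scaling to 1 total (adjusted p = 0.703). Of the 50-base stretches of the longest Bco1 transcript, 1.57% occur in other genes.

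Bco1 and Isx were inverted between High and the other gates. The ratio of Bco1 to Isx counts was 6.62, 6.32 and 5.20 in the High libraries, and it ran from 0.137 to 0.183 in Low, 0.0525 to 0.0867 in Sublow and 0.102 to 0.146 in Negative. Scarb1, the other known target of Isx, measured 218, 266 and 202 in Negative, 227, 153 and 107 in Sublow, 404, 359 and 253 in Low, and 1740.3, 1771 and 1653 in High. For Scarb1 the log2 difference of High minus Low was 2.37 ± 0.25 (adjusted p = 1.99e-05), and that of Sublow minus Low was -1.09 ± 0.25 (adjusted p = 0.00794). Scarb1 was not called in Negative minus Low (-0.55 ± 0.25, adjusted p = 0.0787) or in Sublow minus Negative (-0.55 ± 0.25, adjusted p = 0.118). Outside High, no comparison of gates had called changes of Bco1 and Isx in opposite directions. Between Sublow and Low, Isx was higher in Sublow, whereas Bco1 was not called (log2 difference -0.29 ± 0.19, adjusted p = 0.291). Between Sublow and Negative, Isx was not separated and Bco1 was higher in Negative. Between Low and Negative, Isx was higher in Negative and the Bco1 libraries of Negative also lay above those of Low, by the log2 difference of 0.46 that was not called.

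Summed markers of tuft and enteroendocrine cells were highest in High, as Bco1 was. In Negative, where Bco1 was higher than in Sublow, the mean sums of tuft and enteroendocrine markers were lower than in Sublow. The tuft sums of these gates overlapped, as Negative replicate C lay above Sublow replicate B. Tuft cell markers, 8 genes such as Dclk1 and Trpm5, summed to between 100976 and 102984 in High, 9350 and 15679 in Low, 205 and 559 in Sublow, and 98.4 and 226 in Negative. Enteroendocrine markers, 8 genes such as Chga and Neurod1, summed to between 367748 and 574960 in High, 37415 and 75217 in Low, 2063 and 6211 in Sublow, and 419.8 and 1325 in Negative. Between Sublow and Negative the single genes of these lists were mixed. Trpm5, Pou2f3 and every enteroendocrine marker but Pax6 and Pyy were lower in Negative without overlap. The other tuft and enteroendocrine markers overlapped. Alox5 measured 24.3, 21.5 and 47.9 in Negative, beside 40.8, 31.3 and 10.5 in Sublow. Pax6 measured 224, 185 and 235 in Negative, beside 281, 161 and 186 in Sublow. Fibroblast and stromal markers summed to between 3059 and 4773 in High and between 227 and 1180 in the other gates. Vim made up most of that in High, from 2870.3 to 4578, with Dcn and Lum at 0 in the 3 High libraries. The rest of that list was mixed. Col1a2 ran from 81.9 to 136 in High and from 214 to 269 in Negative. Pdgfrb ran from 38.7 to 59.1 in High and from 26.1 to 35.9 in Negative. The part of these cells in the level of Bco1 was not tested.

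**Figure D3:**
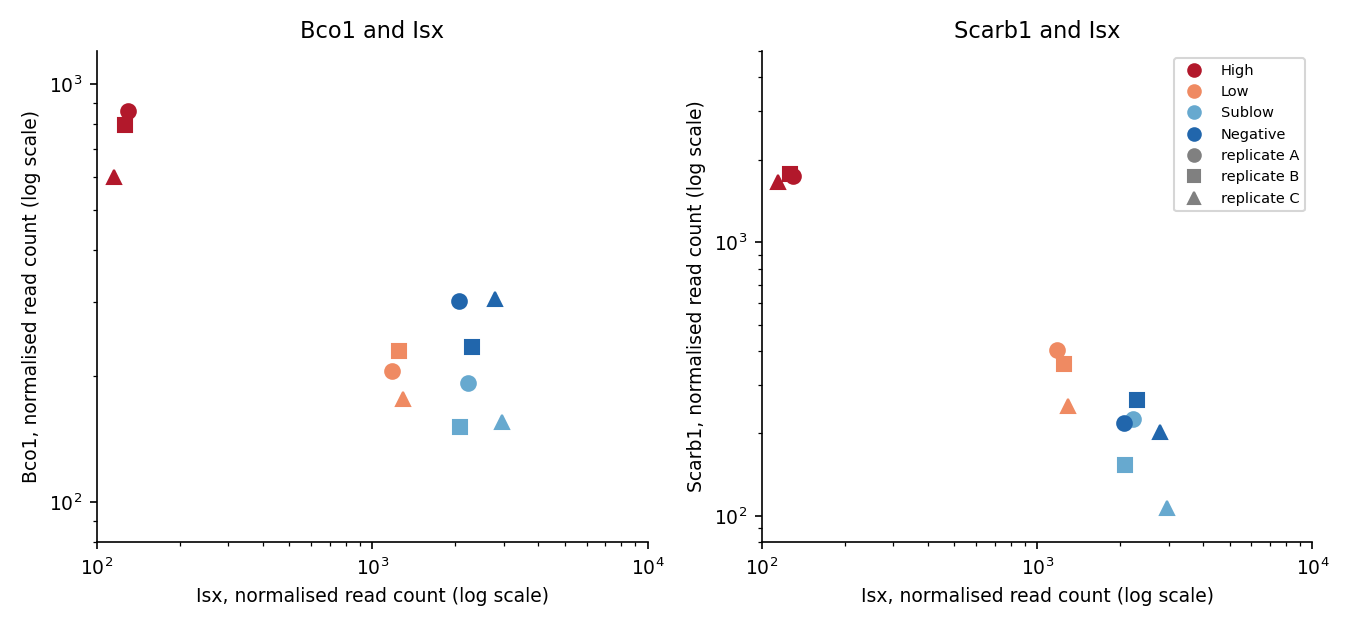
Bco1 (left) and Scarb1 (right) against Isx, normalised read counts on log axes; each point is a library, coloured by gate and shaped by replicate letter. The 3 High libraries sit at the upper left, with Isx between 115 and 129.9, apart from the 9 libraries of the other gates.

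Over the 4 gates together, 69.5% of the 16577 genes tested differed in an F-test, and calls were common in each comparison of gates, so the members' counts are set beside those of all genes. Between Negative and Low, 6 of 7 members were higher in Negative (all but Bco1). Among all genes 57.2% were called there, 26.8% higher and 30.3% lower, and the median log2 difference was 1.15 for the members and -0.05 for all genes. Between Sublow and Low, 4 of 7 were higher in Sublow (Rbp2, Isx, Dhrs3 and Aldh1a1), beside 24.0% of all genes called, 13.3% higher and 10.7% lower, with medians of 0.82 and -0.06. Between Sublow and Negative, 5 of 7 were lower in Sublow (all but Isx and Dhrs3), beside 27.7% called, 15.1% higher and 12.7% lower, with medians of -0.73 and -0.04. That count rested on single libraries: it fell to 1 without Sublow replicate C or Negative replicate B, to 2 without Sublow replicate A and to 3 without Negative replicate C. The calls of all genes in those fits are not given here.

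Against Low, 4 of 7 members were lower in High (Isx, Lrat, Dhrs3 and Rdh10) and 1 was higher (Bco1), beside 42.9% of all genes called, 23.6% higher and 19.3% lower. The medians were -0.73 for the members and 0.10 for all genes. Against Sublow, 6 were lower in High and 1 higher, beside 52.0% called, 26.7% higher and 25.3% lower, with medians of -2.60 and 0.03. Against Negative, 6 were lower in High and 1 higher, beside 54.6% called, 28.8% higher and 25.8% lower, with medians of -4.20 and 0.03. Bco1 was the higher one each time.

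**Figure D4:**
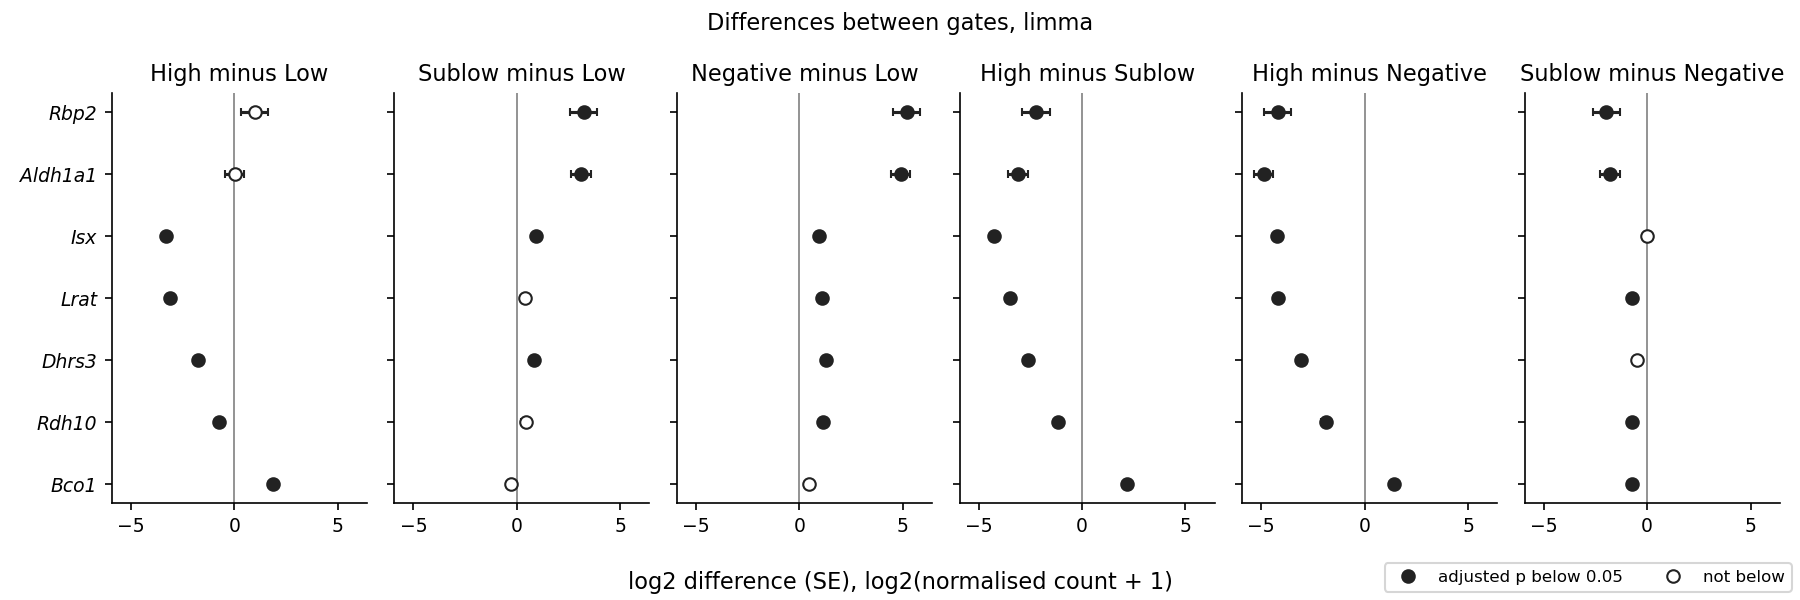
log2 difference with its standard error of the 7 retinoid genes in the 6 comparisons of gates, from a limma fit of 12 libraries; filled points have an adjusted p below 0.05. Bco1 lies to the right of 0 in the 3 comparisons with High as the first gate, where Isx, Lrat, Dhrs3 and Rdh10 lie to the left.

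The wider retinoid pathway was read from lists of 51 genes, the 7 members included, of which 45 had enough reads to be tested. Cyp26a1 had enough reads through High alone, and Cyp26b1 only with both Sublow and Negative included. Both genes are left out of the counts given next and of those for the separate lists. Of the other 43, 26 were higher and 4 lower in Negative than in Low, beside 26.8% and 30.3% of all genes. In Sublow against Low 16 were higher and 3 lower, beside 13.3% and 10.7% of all genes. In High against Low 8 were higher and 13 lower, beside 23.6% and 19.3% of all genes.

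The 4 listed genes of ester formation and hydrolysis (Lrat, Dgat1, Plb1 and Lipe) were higher in Negative than in Low, beside 26.8% of all genes, by unequal amounts. Dgat1, a triglyceride synthase that can also esterify retinol, measured 7653 ± 963 in Negative, 833 ± 187 in Low and 435 ± 61.5 in High (mean ± SD, n = 3). Its log2 difference of Negative minus Low was 3.21 ± 0.30 (adjusted p = 8.37e-06), beside 1.11 ± 0.19 for Lrat, 3.71 ± 0.38 for Plb1 and 3.38 ± 0.43 for Lipe. Bco2, the oxygenase that cleaves carotenoids off-centre, was lowest in High, where Bco1 was highest, with 2834 ± 379 in Negative, 1109 ± 771 in Sublow, 168 ± 82.1 in Low and 75.6 ± 24.0 in High. Its log2 difference of High minus Negative was -5.25 ± 0.47 (adjusted p = 1.2e-06), beside 1.41 ± 0.19 for Bco1. Between Sublow and Negative the signs were alike, as both genes were lower in Sublow, Bco2 by a log2 difference of -1.60 ± 0.47 (adjusted p = 0.0262) and Bco1 by one of -0.75 ± 0.19.

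Rbp4 and Stra6l were highest at the opposite end from Rbp2. Of 8 listed binding proteins and carriers 5 were tested, and between High and Low 3 were higher in High (Rbp4, Stra6l and Ttr) and 1 was lower (Rbp7), beside 23.6% and 19.3% of all genes. Rbp4, the carrier of retinol in blood, measured 3008 ± 611 in High, 484 ± 53.0 in Low and 29.1 ± 17.5 in Sublow, and between 1 and 7 reads were counted in each Negative library. Stra6l, which encodes a receptor for that carrier, measured 114 ± 35.8 in Negative, 383 ± 129 in Sublow, 1385 ± 107 in Low and 2557 ± 417 in High.

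Of 12 listed genes of retinol oxidation, all tested, 8 were higher in Negative than in Low, Rdh10 among them, beside 26.8% of all genes. Rdh7 rose by 4.28 and Dhrs9 by 1.68 on the log2 scale, beside 1.15 for Rdh10. Between High and Low, 2 were higher in High (Adh1 and Adh7) and 2 lower (Rdh10 and Rdh16), beside 23.6% and 19.3% of all genes. Adh1, a cytosolic alcohol dehydrogenase that also oxidises retinol, measured 2960.1 ± 254 in Low and 15235 ± 859 in High (log2 difference 2.37 ± 0.27, adjusted p = 3.41e-05). Of 6 listed retinaldehyde reductases, 4 were lower in High than in Low (Dhrs3, Dhrs4, Rdh11 and Rdh13), beside 19.3% of all genes. In Negative against Low 4 were higher (Dhrs3, Dhrs4, Rdh11 and Rdh14), beside 26.8% of all genes, by 1.31, 0.48, 0.65 and 0.94 on the log2 scale.

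Among the other retinaldehyde dehydrogenases, Aldh1a3 measured 91.1 ± 29.7 in Negative, 84.6 ± 35.1 in Sublow, 86.2 ± 17.2 in Low and 104 ± 2.54 in High, with adjusted p between 0.34 and 0.904 in the 6 comparisons. Aldh1a2 had too few reads to be tested, with gate means from 0 to 2.40. Aldh8a1, also on the list, measured 90.3 ± 14.3 in Negative, 50.8 ± 29.5 in Sublow, 28.8 ± 7.35 in Low and 26.5 ± 11.5 in High. It was higher in Negative than in Low (log2 difference 1.64 ± 0.49, adjusted p = 0.0127) and lower in High than in Negative (-1.80 ± 0.49, adjusted p = 0.00774). Cyp26a1, which breaks down retinoic acid, measured 22.6, 14.7 and 36.3 in High and between 0 and 7.39 in the other 9 libraries, so it entered the test through High alone. Of the nuclear receptors, Rxra measured 2929 ± 424 in Negative, 1865 ± 538 in Sublow, 834 ± 131 in Low and 449 ± 42.3 in High (Negative minus Low 1.81 ± 0.21, adjusted p = 2.34e-05). Of the 6 listed receptors, 1 was higher and 2 were lower in High than in Low, beside 23.6% and 19.3% of all genes. Rarg was higher by 2.34 ± 0.42 on the log2 scale (adjusted p = 0.000852). Rara and Rxra were lower, with log2 differences of -1.02 ± 0.19 and -0.89 ± 0.21 (adjusted p = 0.00115 and 0.00472). The other 3 were not called. Of 10 listed targets of retinoic acid, 5 were tested with Cyp26a1 and Cyp26b1 left out, and 3 of them were lower in High than in Low (Dhrs3, Tgm2 and Isx), beside 19.3% of all genes. The other 2 were not called.

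**Figure D5:**
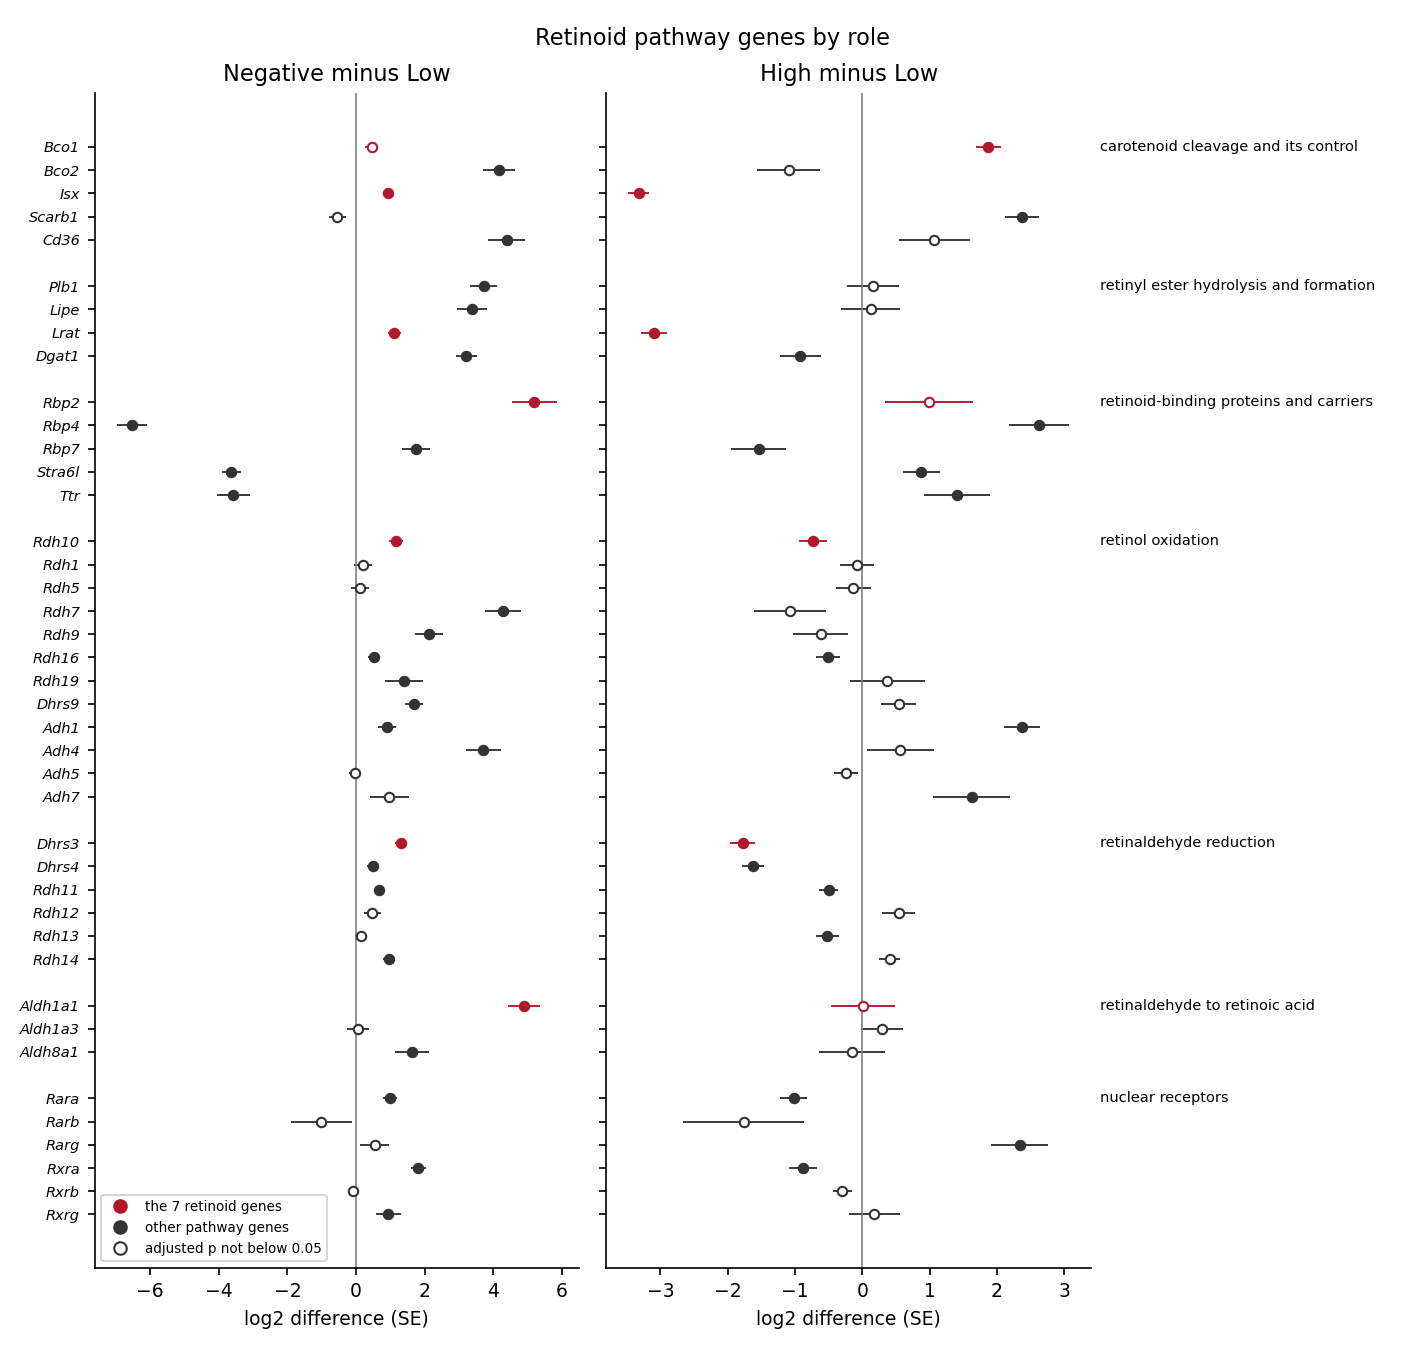
log2 difference with standard error for tested retinoid pathway genes grouped by role, the list of retinoic acid targets, Cyp26a1 and Cyp26b1 left out, for Negative minus Low (left) and High minus Low (right); red marks the 7 genes, and open points have an adjusted p that is not below 0.05. In the left panel Rbp4, Stra6l and Ttr are filled points left of 0 and Rbp2 and Aldh1a1 lie farthest to the right, and in the right panel Isx and Lrat lie farthest to the left.

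The genes most like each member were sought by Pearson's r of log2 values over the 12 libraries, among 10402 genes with a mean of at least 100. The points share gates and libraries, so r is a description. Rbp2 was most like Eci3 (r = 0.998), Papss2 (0.997) and Cyp4f14 (0.996), and Aldh1a1 most like Tmem139, Cyp3a13 and Slc7a8 (each 0.998). Isx was most like Tkt (0.995), Qars (0.995) and Ppa2 (0.994), and Lrat most like Nlrp6 (0.995), Prlr (0.992) and Kitl (0.991). Dhrs3 was most like Cxadr (0.996), Naip1 (0.994) and St14 (0.994), and Rdh10 most like Slc25a3 (0.986), Vmp1 (0.985) and Sfxn1 (0.982). Bco1 was most like Fchsd1 (0.967), Chat (0.967) and Kctd13 (0.964). Chat, the enzyme of acetylcholine synthesis, which intestinal tuft cells express, had a mean of 848 in High and 82.9 in Low. Among the members r was highest for Rbp2 with Aldh1a1 (0.974), Isx with Lrat (0.973) and Lrat with Dhrs3 (0.971), and lowest for Bco1 with Isx (-0.889).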

How the data were processed

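RNA sequencing of 12 libraries was used, 3 from each of 4 Sox9-GFP gates. Per the labels' protocols, 12000 cells were ribosomal-RNA depleted, libraries were made with a Clontech Total RNA Pico kit (SMARTER v2), and reads were single-end. The authors deposited 1 table of normalised counts, a signal per gene and library. Dividing by the value of 1 read gave whole numbers for 100% of values (tolerance 0.01). Aligner, build, annotation and counting were not given in the sources used here.

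Values were taken as log2(value + 1). The 16577 genes that reached 10 in 3 or more libraries were tested with limma 3.58.1 (trend, 1 fit of 12 libraries, Benjamini-Hochberg over all genes, adjusted p below 0.05), after the script was tested on simulated data. On the recovered reads, edgeR 4.0.16 called 7357 genes and DESeq2 1.42.0 called 7714 between High and Low, where limma called 7110. Members and lists were chosen with earlier results of these data known. The text names the 7 members, their listed partners and paralogs, and the 3 most similar genes per member; other pathway genes (Rbp4, Stra6l, Rdh7, Cyp26a1 and those named in counts) were chosen after their values were seen. Some listed genes are not reported here and are left out of the counts and marker sums.

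Other settings were the replicate letter as a block, pseudocounts of 0.5 and 5, no filter, a minimum mean of 50, 1 total for all libraries, quantile scaling, robust empirical Bayes, edgeR, DESeq2, a fit of the 6 libraries compared, and each library left out. A fit without Sublow was added after the data were seen.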

Additional observations from a re-analysis of the deposited data

How the results depend on the processing

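Of 42 differences of single members, 34 were called, and 27 of these were called in each other setting that could give them. The rest were Rdh10 in High against Low, Isx in Negative against Low, and the 5 calls of Sublow against Negative. For Sublow against Negative, 5 members and 17 pathway genes were called in the main fit, beside 4597 of all genes. Cyp26a1 and Cyp26b1 are included in the pathway counts of this section. With 1 total for all libraries, 1 member and 8 pathway genes were called, beside 4439 of all genes. The 6 libraries alone gave 0 and 0 (limma), beside 46 of all genes. There, 6 members and 21 pathway genes had an unadjusted p below 0.05. With edgeR 10 pathway genes were called, beside 3995 of all genes. Leaving out 1 library gave 1 to 6 members and 6 to 24 pathway genes, and the calls of all genes in those fits are not given here. The difference of Aldh1a1 between High and Low, not called in any setting, was -0.062 with 1 total, -0.065 with quantile scaling, -0.080 with edgeR and -0.11 with DESeq2, and -0.32 to 0.38 with 1 library left out. Bco1 in Negative minus Low was -0.10 with 1 total, and Isx in Sublow minus Negative ran from -0.14 to 0.13 with 1 library left out. The cause of these changes was not tested.

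Scaling to 1 total changed the split of all genes called, in Negative against Low from 4446 higher and 5028 lower to 2441 and 8049, in Sublow against Low from 2201 and 1778 to 1306 and 3263, in High against Sublow from 4421 and 4201 to 5430 and 3166, in High against Negative from 4776 and 4278 to 7423 and 2588, and in Sublow against Negative from 2500 and 2097 to 3829 and 610. In the last comparison edgeR gave 2686 and 1309 and quantile scaling 2042 and 1120.

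With the replicate letter as a block, 7 members were called between Negative and Low and 6 between Sublow and Negative, since Bco1 and Dhrs3 were added (adjusted p = 0.0365 and 0.0291), and no other call of a member changed. Calls of all genes rose as well, from 9474 to 10006 between Negative and Low and from 4597 to 6030 between Sublow and Negative. Same-letter deviations correlated at 0.0521 to 0.341 over 18 pairs, and 12 of 12 libraries correlated best with their own letter, a hint from the data and not from the design. At this depth 3 reads are 2.38 to 4.61 normalised counts, far below every member.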
